A study of Mus musculus with 3 samples.

Results

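This account follows 9 genes of the Sertoli cell through single-cell RNA counts of adult mouse testis. They are the transcription regulators Sox9, Wt1 and Gata4, the hormone receptors Fshr and Amhr2, the inhibin subunits Inha and Inhbb, and the secreted proteins Trf and Clu. They were picked by symbol, and all 9 were found among the 32285 genes of the deposited tables.

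The study set mice with a conditional deletion of Tex10 against wildtype mice, all labelled C57BL/6N. Cells of whole testes, freed with collagenase IV and strained, went into 10x Genomics 3′ libraries, in which unique molecular identifiers (UMIs) count RNA molecules at their 3′ ends. Wildtype 1 and wildtype 2 came from 1 adult mouse each, and the library labelled knockout held pooled cells of 2 adult mice. No Cre driver and no deleted exon is named in the labels, so the cell type that lost Tex10 is not given. Since the knockout group is 1 library, no test between the groups exists. Levels are UMIs per 1000000 UMIs of a cell class (CPM), with exact Poisson 95% intervals that cover counting error only.

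Sertoli cells are the somatic cells of the seminiferous tubule, which surround and feed the germ cells. Follicle-stimulating hormone acts on them through its receptor, and they return inhibin, which lowers the release of that hormone from the pituitary. SOX9, WT1 and GATA4 act in the fate and upkeep of the cell, while transferrin and clusterin are among its best known secreted proteins.

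For 3 of the 9 genes, RefSeq promoter windows (GRCm38.p6) are shown so that the letters before the starts of genes of 1 cell type can be compared. The windows hold the 250 bases before the annotated start, 5′ to 3′ on the gene's strand. RefSeq windows matched 4 of the 9 genes, and that of Inha is left out because it lay inside the gene. Capitals mark CACGTG, an E-box, AAGGTCA, a half-site of steroidogenic factor type, and GATAA, the core bound by GATA proteins, read on both strands (TTATC is GATAA on the other strand). AACAAT, a SOX-type core, was searched too.
Fshr: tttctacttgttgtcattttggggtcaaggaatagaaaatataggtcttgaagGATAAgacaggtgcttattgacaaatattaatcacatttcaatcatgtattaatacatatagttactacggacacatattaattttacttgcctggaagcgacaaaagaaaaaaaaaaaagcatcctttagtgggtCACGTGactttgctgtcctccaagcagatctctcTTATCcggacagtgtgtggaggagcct
Amhr2: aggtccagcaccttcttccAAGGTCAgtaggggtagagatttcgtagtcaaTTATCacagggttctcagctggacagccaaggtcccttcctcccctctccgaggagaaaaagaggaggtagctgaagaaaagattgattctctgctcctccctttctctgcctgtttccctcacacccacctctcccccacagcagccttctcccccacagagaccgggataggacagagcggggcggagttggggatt
Inhbb: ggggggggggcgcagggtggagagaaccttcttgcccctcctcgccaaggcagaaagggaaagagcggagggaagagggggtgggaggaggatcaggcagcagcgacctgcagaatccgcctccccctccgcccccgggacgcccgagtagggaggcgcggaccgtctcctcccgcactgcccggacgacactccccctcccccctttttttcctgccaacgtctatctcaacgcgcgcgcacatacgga

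The Fshr window (chr17:89200676-89200925, minus strand) held CACGTG beginning 61 bases before the start, and GATAA 197 bases before it and, on the other strand, 27 bases before it. The Amhr2 window (chr15:102445117-102445366, plus strand) held AAGGTCA beginning 231 bases before the start and GATAA on the other strand at 199 bases. The Inhbb window (chr1:119422249-119422498, minus strand) held none of the searched letters and had a GC content of 68.0%, against 36.8% for Fshr and 55.2% for Amhr2. Among all 32851 windows of this length, 6.02% held the E-box, 4.08% the steroidogenic half-site, 22.6% the GATA core and 9.42% the SOX-type core. The last was in none of the 3 windows. These matches describe letters and not binding.

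Of the deposited barcodes, 3237, 4049 and 3668 were kept in wildtype 1, wildtype 2 and the knockout library, out of 9967, 10153 and 12918. Library totals were 93418341, 96001773 and 147783171 UMIs. The kept barcodes formed 25 clusters, named from marker genes, in a clustering that left out the 9 genes. The Sertoli-like class was 1 cluster of 54, 31 and 129 barcodes with 796333, 735985 and 3111866 UMIs, and all 15 of its markers, none of them among the 9 genes, were detected in each library. Barcodes in the class had median totals of 11594.5, 16127 and 22261 UMIs. Library pairs shared 27 to 30 barcodes, none of them Sertoli-like. Tex10 itself stood at 35.2, 50.3 and 35.3 CPM in the Sertoli-like class (28, 37 and 110 UMIs). The knockout interval, 29.1 to 42.6 CPM, overlapped those of wildtype 1 (23.4 to 50.8) and wildtype 2 (35.4 to 69.3). Its 3′ counts in this class thus did not separate the library labelled knockout from either wildtype library. In round spermatids the knockout level, 18.9 CPM (17.2 to 20.7), lay under both wildtype intervals, at 27.4 (24.7 to 30.4) and 26.1 (23.8 to 28.5), and in late spermatocytes it was 48.0 CPM (45.9 to 50.2) against 56.8 and 56.4. A 3′ tag outside deleted exons cannot check a deletion, and the exons are not given.

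The Sertoli-like class was not uniform. Markers of elongating spermatids, 13 genes that serve the compact sperm head and tail, took 3.21%, 2.65% and 6.05% of its UMIs in wildtype 1, wildtype 2 and the knockout library. Single barcodes ranged from 0.104% to 28.4%, with medians of 1.10%, 0.868% and 1.30%. Barcodes under 2% numbered 31 of 54, 20 of 31 and 66 of 129, and in them the spermatid markers took 0.563%, 0.718% and 0.528%. Levels are given below for the whole class and, where it matters, for these barcodes low in spermatid RNA, a limit chosen after the data were seen. The limit covers elongating spermatid markers only. The 9 late spermatocyte markers summed to 3403, 3963 and 3676 CPM in the whole class. Markers of other somatic cells were low throughout the class, at 5.02 to 28.6 CPM for the 9 Leydig markers (Insl3 and Lhcgr at 0), 6.28 to 8.36 for the 9 macrophage markers and 153 to 227 for the 7 peritubular myoid markers.

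**Figure D1:**
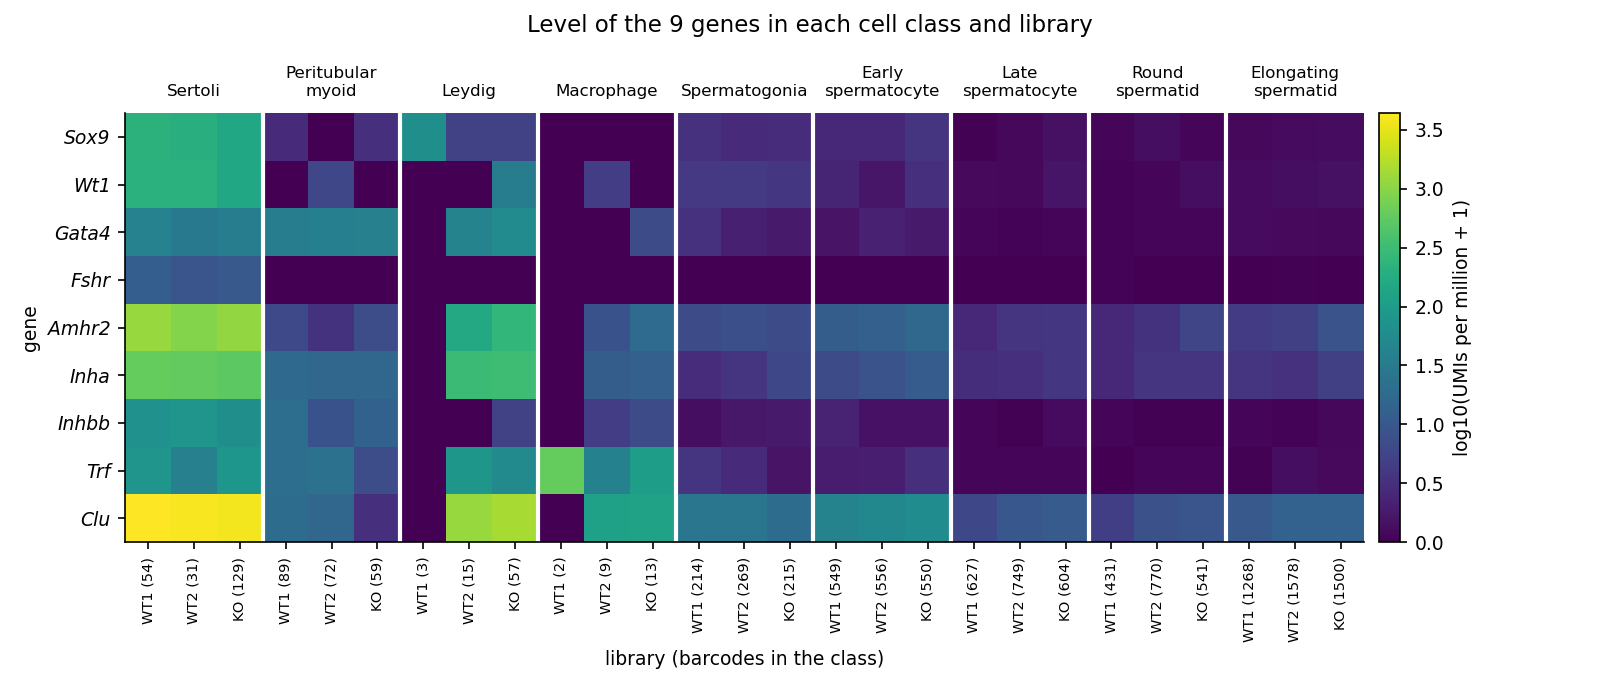
Heat map of log10(CPM + 1) for the 9 genes (rows) in 9 cell classes, each split into the 3 libraries (columns, with the number of barcodes in brackets). The Sertoli columns are the brightest for most genes, Gata4 is as bright in peritubular myoid cells, and Clu, Inha and Amhr2 also stand out in the Leydig columns of wildtype 2 and the knockout library.

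Among the transcription regulators, Sox9 and Wt1 were far higher in the Sertoli-like class than in the others among the 7 classes with at least 10 barcodes in every library (Sertoli-like, peritubular myoid and 5 germ cell classes). Sox9 (chr11:112782224-112787760, plus strand, GRCm38), the SRY-box factor that directs testis formation, stood at 216 CPM (185 to 251) in wildtype 1, 196 (165 to 230) in wildtype 2 and 152 (139 to 167) in the library labelled knockout. That last value was the lowest, but its interval overlapped that of wildtype 2. Against the next class, spermatogonia or early spermatocytes at 1.77 to 2.50 CPM, the level was 94.0-fold, 111-fold and 61.1-fold higher. Wt1 (chr2:105126529-105173616, plus strand), the zinc finger factor that keeps Sertoli cell identity, stood at 213, 213 and 149 CPM from 170, 157 and 465 UMIs. The knockout interval, 136 to 164 CPM, lay under both wildtype intervals, 183 to 248 and 181 to 249. Outside Sertoli-like barcodes the highest level of Wt1 among the 7 classes was 4.91 CPM, from 2 UMIs in peritubular myoid cells of wildtype 2.

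Gata4 (chr14:63198922-63271692, minus strand), a zinc finger factor shared by gonadal somatic cells, was not particular to Sertoli-like barcodes. It stood there at 40.2, 28.5 and 34.1 CPM, from 32, 21 and 106 UMIs. Peritubular myoid cells, the contractile cells around the tubule, held 34.4, 36.9 and 38.2 CPM. The ranges of the 2 classes overlapped over the 3 libraries, whereas every germ cell class held at most 2.30 CPM.

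Of the hormone receptors, Fshr gave few molecules and Amhr2 many. Fshr (chr17:88984952-89200675, minus strand), the receptor of follicle-stimulating hormone, gave 9, 6 and 29 UMIs in Sertoli-like barcodes, or 11.3 CPM (5.17 to 21.5), 8.15 (2.99 to 17.7) and 9.32 (6.24 to 13.4). These intervals overlap widely, so no difference between the libraries could be seen at this depth. Outside the class each library gave 1 Fshr UMI in all kept cells, so Sertoli-like barcodes gave 9 of 10, 6 of 7 and 29 of 30 UMIs of the gene while holding 1.04%, 0.931% and 2.64% of all kept UMIs. Thinned to 4000 UMIs, Fshr was seen in 3.70%, 3.23% and 3.88% of Sertoli-like barcodes, which limits any use of it as a marker of single cells.

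Amhr2 (chr15:102445367-102454633, plus strand), the type 2 receptor of anti-Müllerian hormone, stood at 1212 CPM (1137 to 1291), 918 (851 to 990) and 1144 (1107 to 1182). The knockout library lay between the wildtype libraries, whose intervals did not overlap each other. Of the 7 classes, early spermatocytes came next at 10.7, 12.1 and 16.0 CPM. Thinned to 4000 UMIs, 87.0%, 87.1% and 70.5% of Sertoli-like barcodes held an Amhr2 UMI, against 5.10% to 5.82% of early spermatocytes.

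The inhibin subunits were high in Sertoli-like barcodes and low in myoid cells. Inha (chr1:75507077-75510366, plus strand), the alpha subunit found only in inhibins, stood at 603 (550 to 659), 579 (525 to 636) and 535 CPM (509 to 561). Against a wildtype mean of 591 ± 16.9 CPM (SD, n = 2), the knockout level came to 90.5%, with overlapping intervals. Inhbb (chr1:119415465-119422248, minus strand), the beta B subunit of inhibin B and of activin B, stood at 69.1, 77.4 and 64.9 CPM from 55, 57 and 202 UMIs. All 3 intervals overlapped. Of the 7 classes, myoid cells were the next for both genes. They held 14.7 to 16.3 CPM of Inha (6 to 9 UMIs) and 7.37 to 19.9 CPM of Inhbb (3 to 11 UMIs). Leydig-like barcodes, outside the 7 classes, held Inha at 306 and 329 CPM in wildtype 2 and the knockout library.

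Of the secreted proteins, Trf (chr9:103204001-103230444, minus strand), the iron carrier transferrin, varied most between the wildtype mice. It stood at 79.1 CPM (60.8 to 101), 38.0 (25.3 to 55.0) and 80.3 (70.7 to 90.9), from 63, 28 and 250 UMIs. Wildtype 1 and the knockout library had overlapping intervals, and both lay above that of wildtype 2. Of the 31-base words in the gene's 3′ ends, 69.1% are also in the read-through gene Gm20425, which is not among the counted genes, and 4.42% in counted genes. Myoid cells held 19.9, 22.1 and 6.37 CPM of Trf, so in wildtype 2 the Sertoli-like level was 1.72-fold that of myoid cells. It was not the highest there. Leydig-like barcodes of wildtype 2 held 83.8 CPM (20 UMIs) and macrophage-like ones 39.5 CPM (11 UMIs), with intervals that overlapped the Sertoli-like one.

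Clu (chr14:65968483-65981547, plus strand), the extracellular chaperone clusterin, stood at 4396 CPM (4252 to 4544), 4102 (3957 to 4251) and 3762 (3694 to 3831). The knockout interval lay below both wildtype intervals, and the level came to 88.5% of their mean, 4249 ± 208 CPM (SD, n = 2). Single barcodes held 0 to 290 Clu UMIs, with medians of 29, 110.0 and 15, so the sum rested on part of the class. Of the 7 classes, early spermatocytes came next with 41.2, 49.6 and 59.0 CPM. Outside the 7 classes, wildtype 2 and the knockout library held 1202 and 1452 CPM in Leydig-like barcodes. In macrophage-like ones they held 122 and 126 CPM.

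The 7 classes compared leave out Leydig-like and macrophage-like cells, in at least 1 of which Trf was higher in each library, from few UMIs. Over the 7 classes, 8 of the 9 genes were highest in the Sertoli-like class in all 3 libraries, the exception being Gata4. Among the 12479 genes that reached 20 CPM in some class of some library, 8.11% were, and 7 of the 8 members in that set were (Fshr stayed below 20 CPM). The log2 ratio to the next class, with 1 CPM added, was at least 1 in every library for 7 members, all but Gata4 and Trf, and for 3.83% of these genes. It was at least 3 in every library for Sox9, Wt1, Fshr, Amhr2, Inha and Clu, a size reached by 1.23% of them. Over the members the median ratio was 5.13, beside -1.58 over all tested genes. The members were picked as Sertoli genes, so these figures describe them and are no test.

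In germ cells the members were present at a low level that the other Sertoli markers shared. Over the 5 germ classes together, each member lay between 0.0951% and 0.951% of its Sertoli-like level. In early spermatocytes, where the share was largest, the median member with enough UMIs stood at 0.936%, 1.00% and 1.60% of its Sertoli-like level, and the median of the other Sertoli markers at 0.786%, 1.08% and 1.26%. In the knockout library the member median thus lay above that of the markers. Free RNA can give UMIs to every droplet, and its part in these germ cell counts was not tested.

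**Figure D2:**
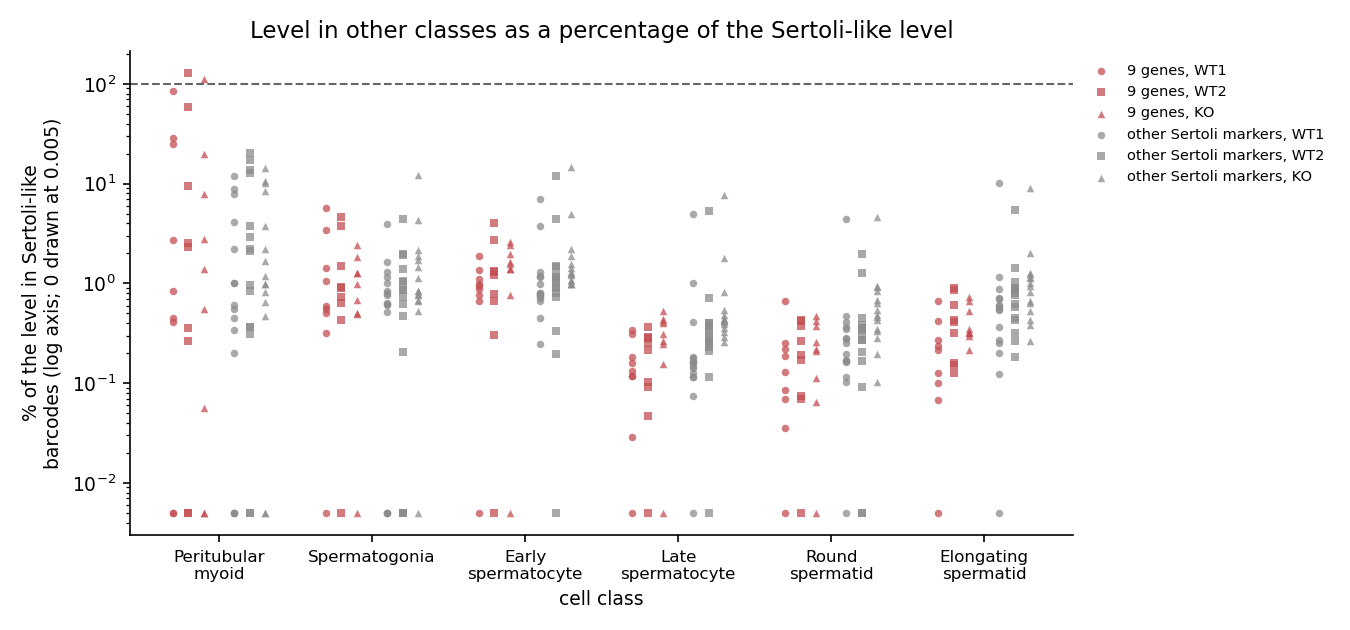
Level in each other class as a percentage of the Sertoli-like level (log axis) for the 9 genes and the other Sertoli markers, 1 point per gene and library, with values of 0 drawn at 0.005. In the germ cell classes both sets lie mostly between 0.05% and 5%, while in peritubular myoid cells Gata4 lies at or near 100%.

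Leydig-like cells, the androgen-making cells between the tubules, were too few for the comparison over 7 classes but held 5 of the genes (Clu, Inha, Amhr2, Gata4 and Trf) with 10 or more UMIs in both libraries that had such cells. The cluster had 3, 15 and 57 barcodes. The 3 of wildtype 1 held no UMI of the Leydig genes Cyp17a1 and Insl3 and are set aside. In wildtype 2 and the knockout library, Clu stood at 1202 and 1452 CPM, Inha at 306 and 329, and Amhr2 at 159 and 254. These are 29.3% and 38.6%, 52.8% and 61.5%, and 17.3% and 22.2% of the Sertoli-like levels, while the median of the other Sertoli markers stood at 0.768% and 5.21%. Single markers went far above that median, with Defb19 at 54.6% and 49.4% and Gstm6 at 19.1% and 32.5%. Gata4 was at 41.9 and 56.6 CPM in Leydig-like barcodes, above its Sertoli-like level in both libraries, with overlap of the intervals in wildtype 2 and none in the knockout library.

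Of the Inha UMIs in Leydig-like barcodes of wildtype 2, 67.1% came from 1 barcode, as did 26.2% in the knockout library. Amhr2 was in 12 of 15 and 44 of 57 Leydig-like barcodes. Wt1 was absent from the 15 of wildtype 2 and present with 42 UMIs in 10 of the 57 of the knockout library. Sox9 stayed near 4 CPM (1 and 5 UMIs), Inhbb gave 0 and 5 UMIs and Fshr none, which allows at most 3.02 CPM in the knockout library by the Poisson interval. Trf was at 83.8 and 55.0 CPM there, 220.1% and 68.4% of its Sertoli-like level, and in macrophage-like barcodes (2, 9 and 13) at 611, 39.5 and 108 CPM from 7, 11 and 18 UMIs. Where Leydig-like cells entered the comparison, with wildtype 1 left out, members highest in the Sertoli-like class fell to 7 (without Gata4 and Trf), and the median log2 ratio to the next class fell to 2.34. Single ratios were then 2.34 for Amhr2, 1.57 for Clu and 0.81 for Inha, while Sox9, Wt1 and Fshr were at 5.08, 3.63 and 3.22. With no doublet removal, where Leydig-like cells also joined, Amhr2 was at 2.12, Clu at 1.17, Inha at 0.44 and Fshr at 2.66.

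Within Sertoli-like barcodes thinned to 4000 UMIs, a median of 3.5, 4 and 3 of the 9 genes were seen per barcode. At least 3 were seen in 77.8% (64.4 to 88.0, exact binomial 95% interval), 77.4% (58.9 to 90.4) and 58.1% (49.1 to 66.8). In early spermatocytes this was 1.82%, 1.98% and 2.73%, and in the other germ classes at most 0.743%. After thinning, 3, 1 and 11 Sertoli-like barcodes showed none of the 9 genes. The binomial intervals take barcodes as independent and do not cover differences between mice. Barcodes with 2% or more of spermatid markers were 23 of 54, 11 of 31 and 63 of 129. Their part in these shares was not tested.

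Taken as groups of barcodes, the 9 genes took a smaller share of UMIs where spermatid markers took more. Barcodes under 2% also included some with few UMIs of the 9 genes. Examples are 1 of wildtype 1 at 0%, 1 of wildtype 2 at 0.0747% and 1 of the knockout library at 0.0193%. In barcodes with 2% or more of spermatid markers the 9 genes took 0.181%, 0.417% and 0.226% of UMIs, against 0.843%, 0.688% and 0.849% in those under 2%. Clu, for example, stood at 948, 2630 and 1337 CPM in the former and 5483, 4633 and 5457 CPM in the latter. The median member kept 21.3%, 56.1% and 30.2% of its level. Other Sertoli markers did not all move in this way: Defb36, a defensin, kept 132%, 101% and 93.0%, and Defb19 113%, 73.7% and 59.9%, whereas Cldn11, a tight junction claudin, kept 15.5%, 39.8% and 25.8%. The median over these markers was 49.9%, 62.7% and 46.8%. The spermatid-rich barcodes were shallower, with medians of 7077, 11229 and 16811 UMIs against 15645, 19283 and 23940. The part that depth or mixed droplets have in this was not tested.

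**Figure D3:**
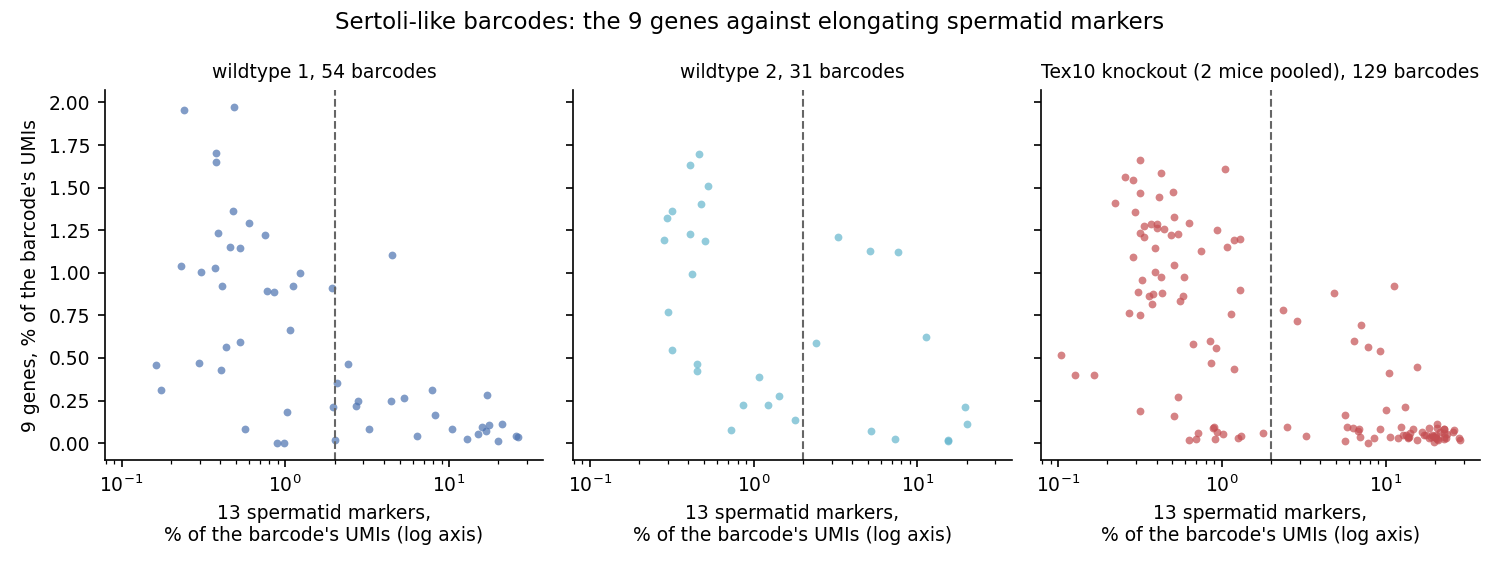
Each point is 1 Sertoli-like barcode, with the share of its UMIs from 13 elongating spermatid markers on the x axis (log scale) and from the 9 genes on the y axis, both in percent. The dashed line marks 2%; to its right most barcodes lie near 0 on the y axis, and 63 of the 129 knockout barcodes lie there against 23 of 54 and 11 of 31.

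Between the library labelled knockout and wildtype, none of the 9 genes passed a size rule that asks for a log2 ratio of at least 1 against each wildtype library, in 1 direction and at least 2 times the ratio between the wildtype libraries, with 20 CPM in 1 library. In Sertoli-like barcodes 137 of 8221 tested genes (1.67%) passed it, 49 higher (0.596%) and 88 lower (1.07%). With TMM scale factors of edgeR, which moved the median of all genes, 109 of 6201 tested genes were higher and 17 lower. Put through the same rule against the other 2 libraries, wildtype 1 gave 0.669% and wildtype 2 gave 0.997%. Fshr was under 20 CPM and could not pass. The log2 ratios to the wildtype mean were -0.43 for Sox9, -0.51 for Wt1, -0.01 for Gata4, -0.06 for Fshr, 0.10 for Amhr2, -0.14 for Inha, -0.17 for Inhbb, 0.45 for Trf and -0.18 for Clu. The median was -0.14, beside -0.11 over all tested genes. Of the 9 genes 7 were below 0, and so were 5314 of the 8221 tested genes. With TMM factors and with no doublet removal, 2 of 9 were below 0, and the medians over all tested genes were 0.20 and 0.03. Trf passed the size rule once, at 1.06 without wildtype 1, where 474 of 7926 tested genes passed.

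By counting error alone, 2 of the 9 genes, Wt1 and Clu, had a knockout interval under both wildtype intervals, and 3.16% of tested genes did. None had it above both, which 3.07% of tested genes did. These intervals narrow as counts rise, so that share is not matched to the counts of Clu. With TMM factors, or with no doublet removal, no member lay under both and Amhr2 lay above both. Sox9 joined Wt1 and Clu with a minimum of 5000 UMIs, with the members among the clustering genes, at Leiden resolution 2 and without wildtype 2. Without wildtype 1, Amhr2 and Trf lay above wildtype 2. For all these alternatives the share of all tested genes was not computed, so the member counts have no background beside them. Neither Wt1 nor Clu lay under both in the barcodes under 2% spermatid markers. There Wt1 stood at 258, 237 and 210 CPM and Clu at 5483, 4633 and 5457 CPM. There the knockout interval of Clu (5351 to 5565) overlapped that of wildtype 1, and that of Wt1 (189 to 232) overlapped both, while 2.78% of tested genes lay under both. Sox9 stood at 269, 222 and 216 CPM in these barcodes, so that the knockout value lay 0.04 under wildtype 2 on the log2 scale. Amhr2 was the 1 gene whose knockout interval then lay above both wildtype ones, at 1442, 1002 and 1629 CPM, where 1.09% of 8528 tested genes did. Its log2 ratio was 0.18 against wildtype 1 and 0.70 against wildtype 2.

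The remaining members in barcodes low in spermatid RNA had knockout intervals that overlapped at least 1 wildtype interval. Inha was at 723, 599 and 732 CPM, Inhbb at 87.5, 92.4 and 90.1, and Gata4 at 49.5, 35.1 and 42.6. Fshr gave 9, 6 and 24 UMIs. Trf kept its pattern, at 97.4, 48.1 and 104 CPM, with wildtype 2 low, and its log2 ratio to the wildtype mean, 0.51, was the largest of the 9. The median log2 ratio over the 9 genes was 0.01, beside -0.03 over all tested genes, and 2 of 9 were below 0. None passed the size rule there, which 2.13% of tested genes did.

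**Figure D4:**
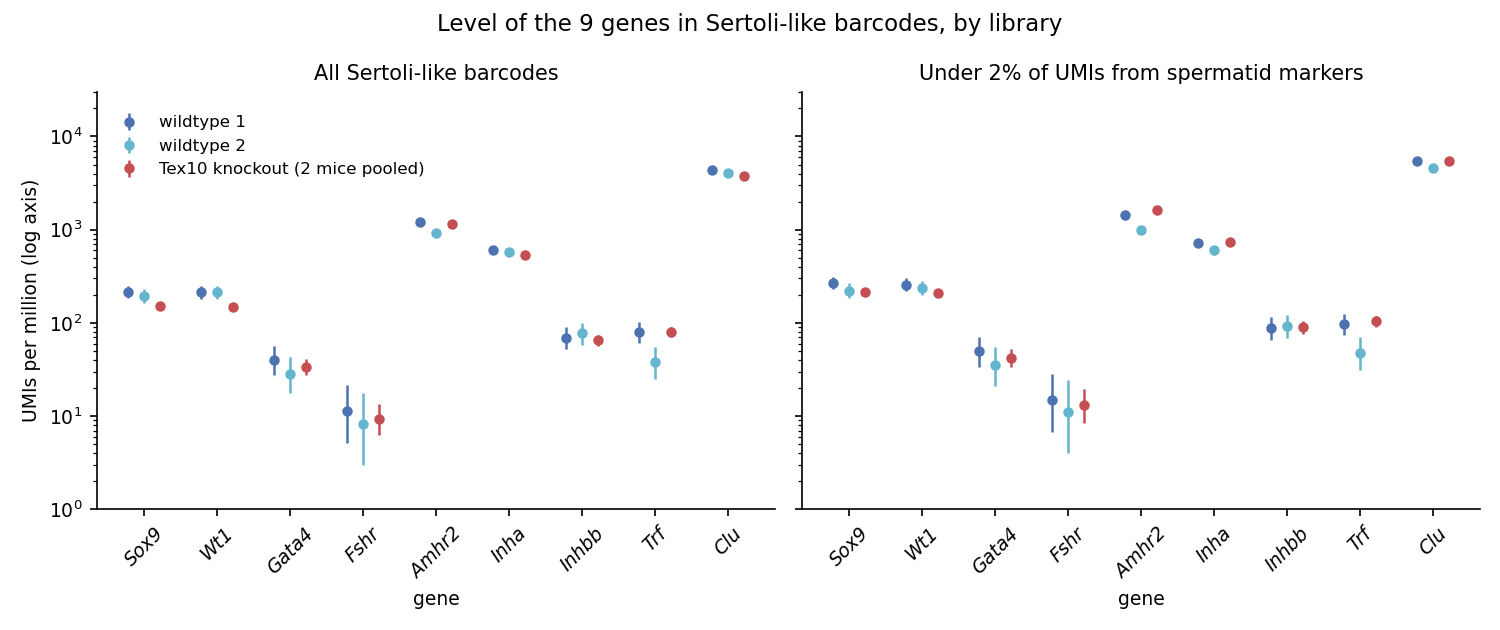
Level of each gene in CPM (log axis) in the 3 libraries, with exact Poisson 95% intervals, for all Sertoli-like barcodes (left) and those under 2% spermatid markers (right). On the left the knockout intervals of Wt1 and Clu lie below both wildtype intervals, and on the right they do not, while Amhr2 of the knockout library is the highest of the 3.

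**Figure D5:**
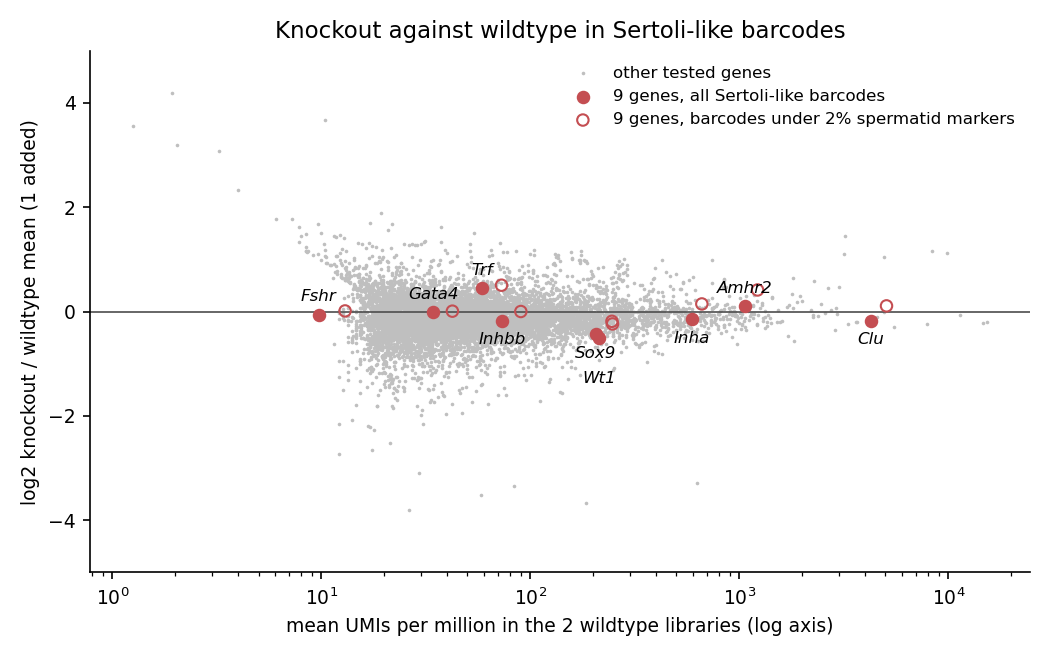
Log2 ratio of the knockout library to the wildtype mean (1 CPM added) against the wildtype mean level (log axis) in Sertoli-like barcodes, for 8221 tested genes (grey) and the 9 genes (filled, whole class; open, barcodes under 2% spermatid markers). The filled points lie between -0.51 and 0.45, inside the grey cloud.

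The share of Sertoli-like barcodes among those kept was 1.67% (1.26 to 2.17, exact binomial 95%), 0.766% (0.521 to 1.09) and 3.52% (2.94 to 4.16). The knockout library stood above both wildtype libraries, which differed from each other. These intervals do not cover differences between mice. In barcodes low in spermatid RNA the shares were 0.958%, 0.494% and 1.80%. The mitochondrial limit sets these shares in part. With a limit of 20% in place of 10%, the class grew to 114, 106 and 197 barcodes, or 3.42%, 2.56% and 5.30%.

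That same change moved the members' levels. With the 20% limit Wt1 stood at 259, 318 and 185 CPM, Clu at 5189, 6468 and 4388, Inha at 811, 986 and 691, and Inhbb at 112, 132 and 82.0. Knockout intervals then lay under both wildtype ones for Sox9, Wt1, Inha, Inhbb and Clu, and 8 of 9 ratios were below 0. The share of all tested genes with either trait was not computed at this limit, so these counts have no background beside them. The median log2 ratio was -0.38 over the members and -0.11 over all tested genes. Spermatid markers took 1.83%, 1.17% and 4.52% of UMIs in this wider class. Their part in the knockout values of the wider class was not tested. Gata4 was then highest in the Sertoli-like class in all 3 libraries, and so were all 9 genes. This was among 8 classes that held macrophage-like but not Leydig-like cells.

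Other genes of these pathways were described from 4 lists. Their ranking across classes used the 7 classes above, which leave out Leydig-like and macrophage-like cells. Of 18 genes of hormone receptors and FSH signalling, 10 were tested, with a median log2 ratio of -0.22. None passed the size rule, which 1.67% of all tested genes did. Of 15 tested across classes, 3 were highest in the Sertoli-like class, where 8.11% of all genes were. Gnas, the stimulatory G protein through which the FSH receptor signals, stood at 843, 637 and 780 CPM. Rara, a retinoic acid receptor, was at 61.5, 50.3 and 45.3 CPM and highest in the Sertoli-like class in all libraries. Crem, a cAMP-responsive factor, was at 126, 129 and 92.6 CPM, below round spermatids at 467 to 551.

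Of 19 genes of the inhibin, activin and AMH pathway, 6 were tested, with a median of -0.41. None passed, where 1.67% of all tested genes did. Of 11 tested across classes, 1 was highest in the Sertoli-like class, a share near the 8.11% of all genes. Bmpr1a, a type 1 receptor that can pair with AMHR2, stood at 40.2, 42.1 and 23.1 CPM, and Tgfbr1, a type 1 receptor of TGF-beta, at 35.2, 29.9 and 24.1. Fstl3, an activin-binding protein, was at 40.2, 77.4 and 46.0 CPM and Smad4, the shared signal carrier, at 36.4, 23.1 and 25.1. In barcodes under 2% spermatid markers Bmpr1a was at 52.8, 46.2 and 31.7 CPM. Picked after its values were seen, Inhba, which codes for the beta A subunit, gave no UMI in the Sertoli-like class of any library, which allows up to 4.63, 5.01 and 1.19 CPM by the Poisson interval. Amh, the ligand of AMHR2, gave 5, 4 and 14 UMIs.

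Of 16 Sertoli transcription regulators, 11 were tested, with a median of -0.09. Of these, 1 passed, lower in the knockout library, as did 1.07% of all tested genes. The gene was Lhx2, a LIM homeobox factor, at 20.1, 25.8 and 6.43 CPM (16, 19 and 20 UMIs). Round spermatids held it at 106 to 115 CPM, and round spermatid markers summed to 1085, 1170 and 648 CPM in the Sertoli-like class. Their part in the Lhx2 value was not tested. In barcodes under 2% spermatid markers Lhx2 stood at 13.2, 22.2 and 4.37 CPM, with log2 ratios of -1.40 and -2.11, beside -1.51 and -1.85 in the whole class. It missed the rule there only on the condition that sets the ratio against that between the wildtype libraries. Across the 7 classes without Leydig-like cells, 9 of the 15 regulators tested were highest in the Sertoli-like class in all 3 libraries. Among all genes tested, 8.11% were. Of these 9, Sox8, Rhox5 and Rhox8 were among the markers that named the class, so their place is not independent of the naming.

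Of 22 genes for secreted proteins and iron handling, 13 were tested, with a median of -0.10. None passed, where 1.67% of all tested genes did. Across the 7 classes, which leave out Leydig-like cells, 10 of 17 tested were highest in the Sertoli-like class, where 8.11% of all genes were. Of these 10, Cst9, Cst12, Ctsl and Dhh were among the markers that named the class, so their place is not independent of the naming. Cst9 and Cst12, of the cystatin family, stood at 3211, 2546 and 2267 CPM and at 4077, 3188 and 3147 CPM. Ctsl, the protease cathepsin L, stood at 4940, 4208 and 4255 CPM. Sparc, a secreted matrix protein, stood at 1632, 1731 and 1780 CPM and was higher in myoid cells, at 2232 to 2531 CPM.

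Across 21 points (7 classes in 3 libraries, which share libraries and depth), the gene whose log2(CPM + 1) was most like the 9 genes on average was Serpina5 (mean Pearson r 0.93), followed by Susd3 (0.93) and Gm35533 (0.93). Serpina5 stood at 226, 196 and 189 CPM in Sertoli-like barcodes and at most at 5.44 CPM in any of the other 6 classes. For single members the most alike gene was Rhox8 for Sox9 and for Amhr2 (both 0.99), Lsr for Wt1, Mid1ip1 for Gata4, Gm2044 for Fshr, Gm35533 for Inha, Rnd3 for Inhbb, Daam2 for Trf and Gatm for Clu. Mid1ip1 shared the double pattern of Gata4, at 81.6, 70.7 and 54.6 CPM in Sertoli-like and 78.0, 93.4 and 104 CPM in myoid cells. Among the members, Gata4 stood apart, with r from 0.57 (Clu) to 0.95 (Trf), while Sox9 and Amhr2 were the closest pair at 0.98. These correlations rest mainly on the step between Sertoli-like and other classes and are descriptions.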

How the data were processed

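The 9 genes and the 4 lists were chosen with earlier results of these data known. The authors deposited whole UMI counts for each gene in each barcode, and Cell Ranger 4.0.0 and mm10 are named in the submitters' processing notes. The notes also name Seurat 4.0.5. Whether counting used strand is not given in the sources used here. Gene positions came from GENCODE M21 on GRCm38 by identifier (32158 of 32285 genes), and 3′ ends were compared in 31-base words.

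Barcodes needed 1000 UMIs, 500 genes and at most 10% mitochondrial UMIs. Scrublet marked 0, 1 and 0 barcodes, under 0.5%, so the top 8% of scores were left out (651, 667 and 961). Barcodes under 5 times the lowest deposited total (4540, 4320 and 6905 UMIs) were left out too. With scanpy 1.11.5, 1994 variable genes without the members, 30 components and 15 neighbours were clustered with Leiden at resolution 1. Clusters were named from fixed markers (at least 3 detected), so class names are rebuilt. Genes were named by a rule: all 9 members, the 3 genes most like the set and 1 most like each member, and list genes past the size rule or else the 4 highest, of which 1 is not reported here. All samples were grouped by their labels. Alternatives were another depth limit, mitochondrial limit, resolution, gene set, doublet step, added CPM, filter, edgeR 4.0.16 TMM factors and each wildtype library left out.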

Additional observations from a re-analysis of the deposited data

Results flagged for a closer look

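Barcodes over 10% mitochondrial UMIs, which only the alternative with a 20% limit used in part, held more RNA of the 9 genes than any kept class other than the Sertoli-like one. In the 1062, 1062 and 904 such barcodes of wildtype 1, wildtype 2 and the knockout library the 9 genes summed to 3618, 4863 and 3826 CPM. Kept cells outside the Sertoli-like class held 19.4, 29.1 and 52.0 CPM. Clu alone made up 2279, 3147 and 2309 CPM of the sums in the barcodes over 10%, and Fshr reached 6.25, 4.81 and 6.02 CPM. Barcodes within the mitochondrial limit but under the depth limit held 467, 450 and 285 CPM.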

How the results depend on the processing

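No paired analysis was possible because the knockout group is 1 library and the labels pair no mice. Leydig-like cells reached 10 barcodes in every library used, and so joined the classes compared, with a 3-fold depth limit, with no doublet removal and without wildtype 1. The median member specificity, 5.13, was then 2.999, 2.12 and 2.34. It was 4.71 with a fixed minimum of 5000 UMIs, 5.07 with the members among the clustering genes, 5.08 at resolution 2, 4.74 with a 20% mitochondrial limit, 4.44 with TMM factors, 4.51 with 5 CPM added and 5.39 in barcodes under 2% spermatid markers. Leaving out a wildtype library gave 2.34 to 5.10.

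The median knockout log2 ratio of the members, -0.14, was -0.38 with the 20% limit, 0.14 with no doublet removal (spermatid markers 14.6%, 10.4% and 11.005%), 0.15 with TMM factors and 0.0128 in barcodes under 2% spermatid markers. Leaving out a wildtype library gave -0.22 to -0.11. TMM moved the median of all tested genes from -0.11 to 0.20.

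Genes past the size rule, 137 of 8221 tested, numbered 82 of 7949 with the 3-fold limit and 72 of 8152 with 5000 UMIs. They were 89 of 8116 at resolution 2, 61 of 7216 with no doublet removal and 90 of 8221 with 5 CPM added. With no CPM filter they were 888 of 32285. They numbered 320 of 7764 without wildtype 2 and 474 of 7926 without wildtype 1. In both the rule has no wildtype ratio to exceed, and without wildtype 1 Trf alone of the members passed. The excess share in the knockout library, 2.30 percentage points, was 3.002 with 5000 UMIs and 1.07 in barcodes under 2% spermatid markers. The causes were not tested. Of 99 single-member knockout ratios under alternatives, 67 moved by less than the SD of the wildtype pair, and of 99 such specificity values 50 did.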
